A study of Homo sapiens and Mus musculus with 13 samples.

Results

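ATF4 is a transcription factor of the bZIP class and the main effector of the integrated stress response. When a kinase phosphorylates the translation factor eIF2, most protein synthesis slows, but the ATF4 mRNA is translated more efficiently through short reading frames upstream of its coding sequence. The ATF4 protein then turns on genes for amino acid supply, for protein folding and, under prolonged stress, for cell death. Breast tumors meet this response under amino acid shortage, low oxygen and load on the endoplasmic reticulum (ER). The 10 genes described here are ATF4, the related factors ATF3 and DDIT3 (CHOP), the feedback and growth regulators TRIB3, DDIT4 and SESN2, the glutathione-degrading enzyme CHAC1, and the amino acid enzymes ASNS, PSAT1 and PHGDH. They were chosen by name in 2 tables of expression and all 10 were found in both, among 24523 human and 55228 mouse gene symbols.

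The study asked how TRIM11, a ubiquitin E3 ligase, acts through KDM5C, a demethylase of lysine 4 of histone H3. The human table holds 7 libraries of MDA-MB-231, a triple-negative breast cancer cell line. All lines carried Cas9 with a guide RNA. Control received a guide against GFP, TRIM11-KD1 and TRIM11-KD2 received TRIM11 guides 1 and 2, KDM5C-KD1 and KDM5C-KD2 received KDM5C guides 1 and 2, and DKD1 and DKD2 received TRIM11 guide 1 or 2 together with KDM5C guide 2. Each knockdown therefore had 2 lines, Control had 1, and both DKD lines shared 1 KDM5C guide. The mouse table holds mammary tumors of 3 Trim11+/+ and 3 Trim11+/- mice, all female, 3 months old and carrying the MMTV-PyVT transgene, in which a mammary tumor virus promoter drives a viral oncogene. These mice were a C57BL/6N and FVB/N hybrid, and the Trim11 allele lacked exons 2 to 6 in every cell, not in the tumor alone.

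Values are FPKM, fragments scaled by transcript length and by mapped fragments, and so can be compared between genes. Total FPKM was 493543 to 513462 in the cell lines and 317659 to 330196 in the tumors. The total by which FPKM was scaled, recovered from the values, was 8793199 to 11117125 reads in the tumor libraries. The depth of the cell libraries is unknown. KDM5C was 30.3 FPKM in Control, 28.4 to 29.8 in TRIM11-KD and 18.8 to 22.7 in the 4 lines with a KDM5C guide. TRIM11 was 12.6 FPKM in Control, 10.6 in TRIM11-KD2 and 9.38 in DKD2, but 13.4 in TRIM11-KD1 and 16.1 in DKD1, so TRIM11 mRNA was not below Control in either line labelled with TRIM11 guide 1. A Cas9 cut need not lower the mRNA of its target, so this does not test the labels. In tumors Trim11 was 35.8 to 39.2 FPKM in Trim11+/+ and 22.8 to 24.0 in Trim11+/-. Kdm5c was 29.5, 24.7 and 29.0 FPKM in Trim11+/+ and 24.5, 24.3 and 23.3 in Trim11+/-. The genotypes thus did not overlap for Kdm5c, beside 13.4% of all genes. MDA-MB-231 identity held in all 7 libraries for VIM, CD44, AXL, FN1, CAV1 and ANXA1, whose summed level was 2351 to 2910 FPKM. Of the genes listed as absent, PGR was at 0 in every line, and ESR1 and FOXA1 were at 0.0234 FPKM or less. GATA3 and CDH1, also listed as absent, were at 4.41 to 8.92 and at 0.615 to 1.98 FPKM.

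The sites through which ATF4 acts join parts of an ATF site and of a C/EBP site and are commonly read as TGATGNAA, where N is any base. This motif was searched on both strands in RefSeq promoters of GRCh38.p14, each 300 bases from 250 before to 50 after a transcription start. The table held 16 promoters for the 10 genes, and 3 of the 10 genes had 1 match each, compared with 4.46% of the 27305 genes in the table. The 3 promoters shown are those with a match. None of the promoters of the other 7 genes, DDIT3 and PSAT1 among them, held one. Capitals mark the match, which in CHAC1 lies on the opposite strand and so reads as the reverse complement. It starts at -209 relative to the start site in CHAC1 (chr15:40953221-40953520, plus strand), at -191 in ATF3 (chr1:212565157-212565456, plus strand) and at -68 in ASNS (chr7:97872359-97872658, minus strand).
CHAC1: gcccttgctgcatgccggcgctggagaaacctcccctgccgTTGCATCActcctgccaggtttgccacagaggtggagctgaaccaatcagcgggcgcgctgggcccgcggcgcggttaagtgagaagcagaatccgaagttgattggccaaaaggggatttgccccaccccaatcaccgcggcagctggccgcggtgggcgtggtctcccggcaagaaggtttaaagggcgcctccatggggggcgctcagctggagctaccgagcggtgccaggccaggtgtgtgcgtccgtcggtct
ATF3: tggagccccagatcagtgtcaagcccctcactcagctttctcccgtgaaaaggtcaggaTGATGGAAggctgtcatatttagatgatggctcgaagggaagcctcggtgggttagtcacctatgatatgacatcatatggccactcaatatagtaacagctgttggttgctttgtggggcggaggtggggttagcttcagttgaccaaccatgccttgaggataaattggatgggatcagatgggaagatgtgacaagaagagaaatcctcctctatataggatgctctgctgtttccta
ASNS: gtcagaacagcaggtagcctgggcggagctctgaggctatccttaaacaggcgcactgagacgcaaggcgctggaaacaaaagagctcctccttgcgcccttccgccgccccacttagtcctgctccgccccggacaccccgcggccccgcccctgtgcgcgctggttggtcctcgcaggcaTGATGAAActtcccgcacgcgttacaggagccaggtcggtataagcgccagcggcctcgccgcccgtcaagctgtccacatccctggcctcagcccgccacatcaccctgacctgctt
A match says only that these letters lie in the window. ATF3 and ASNS each had a second promoter in the table with no match.

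Across the 7 cell lines the 10 genes spanned a wide range of levels. ATF4 itself was the highest, with 145 FPKM in Control, 142 and 133 in the TRIM11-KD lines, 151 and 177 in the KDM5C-KD lines, and 163 and 151 in the DKD lines. Its highest value was 1.33 times its lowest, and 22.9% of all expressed genes varied less between lines (SD of log2(FPKM + 1)). The mRNA level does not report the translation of ATF4. DDIT4, an inhibitor of the growth kinase mTORC1, followed with 94.2 in Control, 89.1 and 63.8 in TRIM11-KD, 70.3 and 99.8 in KDM5C-KD, and 96.0 and 73.9 in DKD. At the other end was PHGDH, the first enzyme of serine synthesis from glucose, with 0.0879 FPKM in Control, 0.105 and 0.134 in TRIM11-KD, 0.1498 and 0 in KDM5C-KD, and 0.610 and 0.611 in DKD. Its mean did not reach 0.5 FPKM, so PHGDH was not tested and 9 of the 10 genes entered the tests. MDA-MB-231 cells are known to express little PHGDH and to take up serine.

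**Figure D1:**
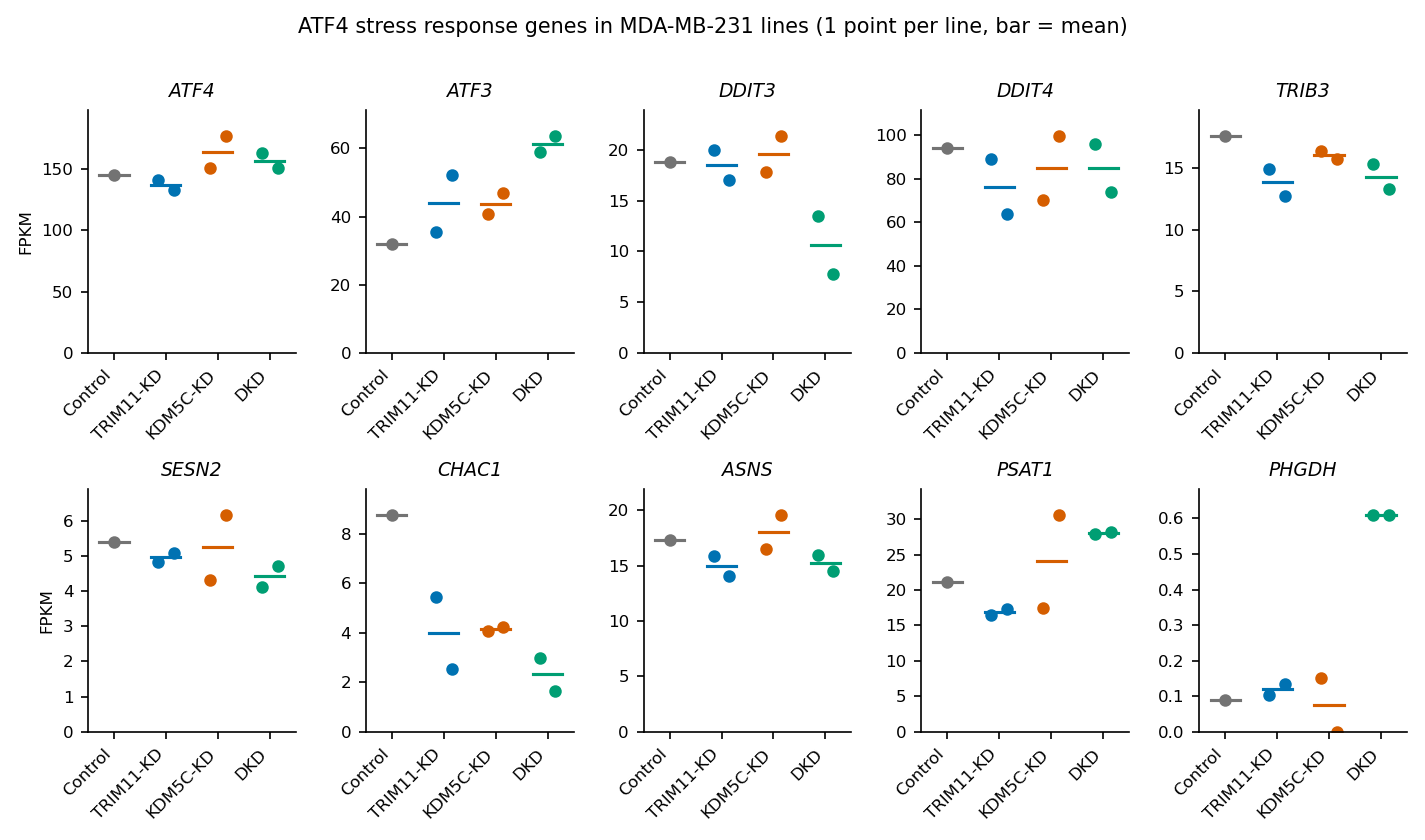
FPKM of the 10 genes (y axis, linear from 0, a separate scale for each gene) in Control, TRIM11-KD, KDM5C-KD and DKD lines, with 1 point per line and a bar at the group mean. ATF4 stayed between 133 and 177 FPKM, CHAC1 was highest in Control at 8.78, DDIT3 was lowest in the DKD lines at 13.5 and 7.79, and PSAT1 was 27.9 to 30.6 in the 3 lines with KDM5C guide 2.

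Compared with Control, CHAC1 and ATF3 stood apart from the other members in opposite directions. With 1 Control library there is no replicate check. A gene was therefore counted as above Control if its ratio to Control reached 1.5 in each line of the pair, and as below if Control exceeded each line by the same factor. CHAC1 cleaves glutathione and is a late target in the branch of ATF4, ATF3 and CHOP. On hg19 it lies at chr15:41245160-41248710 on the plus strand. It was at 8.78 FPKM in Control, 5.46 and 2.55 in TRIM11-KD, 4.07 and 4.22 in KDM5C-KD, and 2.98 and 1.67 in DKD. All 6 knockdown lines were below Control, at 0.622 and 0.290 of its level in TRIM11-KD, 0.463 and 0.480 in KDM5C-KD, and 0.339 and 0.190 in DKD. CHAC1 was the single member counted below Control in KDM5C-KD and in TRIM11-KD, and again the single one below in DKD. The share of all 12636 genes tested that was counted below was 3.97% in KDM5C-KD, 2.58% in TRIM11-KD and 4.87% in DKD. All 3 comparisons share the 1 Control library.

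ATF3, a stress-induced factor that both ATF4 and other pathways induce, was at 31.8 FPKM in Control. It was at 35.4 and 52.3 in TRIM11-KD, 40.6 and 46.9 in KDM5C-KD, and 58.9 and 63.7 in DKD. Every knockdown line was above Control, and both DKD lines were above the other 5 lines. At 1.85 and 2.00 times Control in DKD, ATF3 was the single member counted above there, where 5.83% of all genes were. No member was counted above Control in KDM5C-KD, against 5.36% of all genes, or in TRIM11-KD, against 3.4%. In TRIM11-KD the level of ATF3 was 1.64 times Control with guide 2 and 1.11 times with guide 1, so it was counted when the guide 1 line was left out.

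TRIB3, a pseudokinase that feeds back on ATF4, was also below Control in all 6 lines, but by little. It was at 17.7 FPKM in Control, 14.96 and 12.8 in TRIM11-KD, 16.4 and 15.8 in KDM5C-KD, and 15.3 and 13.3 in DKD. Of the 9 members tested, TRIB3 and CHAC1 were below Control in all 6 lines and ATF3 above. Among all genes, 16.1% were below Control in all 6 lines and 13.6% above, so 3 of 9 was close to the background, and a single Control library sets all of these shares. These positions of the lines were examined after the data were seen.

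**Figure D2:**
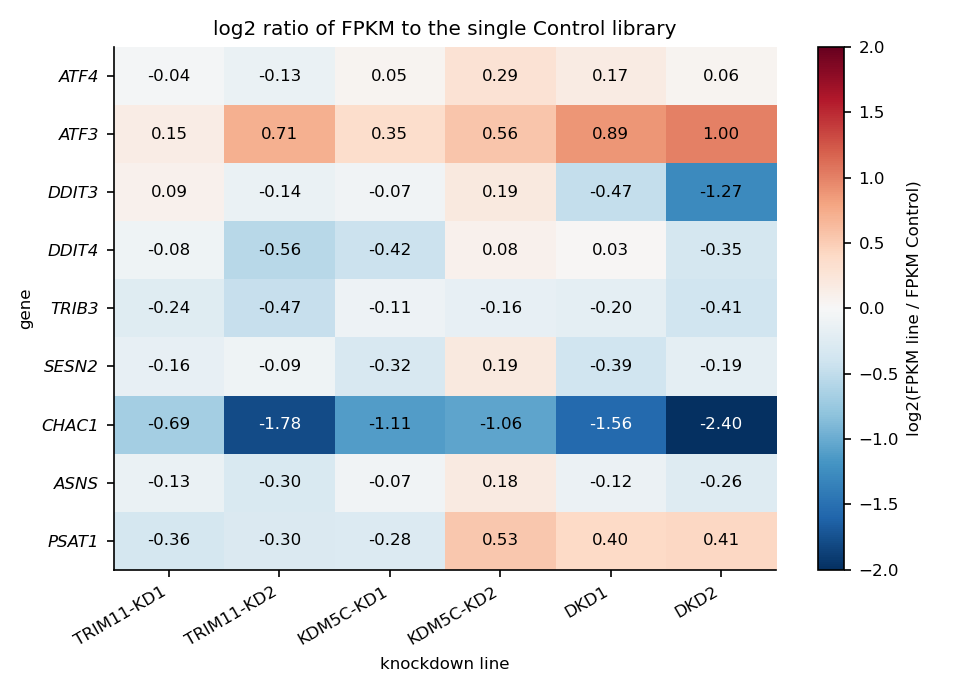
Log2 ratio of FPKM to the Control library (color and printed value) for the 9 members with a mean of at least 0.5 FPKM (rows) in the 6 knockdown lines (columns); the color scale ends short of the lowest CHAC1 value. CHAC1 was below 0 in all 6 lines, down to -2.40 in DKD2, ATF3 was above 0 in all 6, and DDIT3 was at -0.47 and -1.27 in the DKD lines.

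The 7 cell libraries were then fitted together, with the presence of a KDM5C guide and of a TRIM11 guide as additive terms, so that no term rests on Control alone. CHAC1 was lower with either guide. The fitted log2 difference of log2(FPKM + 1) was -0.70 (SE 0.24) for a KDM5C guide and -0.81 (SE 0.24) for a TRIM11 guide. It was the only one of the 9 members that passed a 1.5-fold difference and an unadjusted p under 0.05, and it did so for both terms, where 2.13% of all genes passed for a KDM5C guide and 3.02% for a TRIM11 guide. With Benjamini-Hochberg adjustment over all genes by limma the p-values of CHAC1 were 0.409 and 0.448, so neither passed. Without Control the differences were -0.56 and -0.66, and both calls were lost. In that fit the KDM5C term is DKD minus TRIM11-KD and the TRIM11 term is DKD minus KDM5C-KD. The KDM5C term of CHAC1 also missed the threshold without TRIM11-KD1 (-0.53), without KDM5C-KD1 (-0.67) and without DKD2 (-0.60).

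ATF3 was higher with either guide, by 0.48 (SE 0.14, adjusted p = 0.384) for a KDM5C guide and by 0.46 (SE 0.14, adjusted p = 0.448) for a TRIM11 guide on the log2 scale. Both unadjusted p-values were under 0.05, but the ratios were below the 1.5-fold limit, so ATF3 was not called by limma. An unadjusted p under 0.05 was common. In limma 1397 of 12636 genes had one for a KDM5C guide and 1348 for a TRIM11 guide. Its direction stayed the same in every fit that left out 1 library, and it was called for a KDM5C guide without TRIM11-KD2 (0.61). Across the alternatives the adjusted p of ATF3 was 0.297 to 0.847 for the KDM5C term and 0.174 to 0.813 for the TRIM11 term. For CHAC1 these ranges were 0.283 to 0.847 and 0.139 to 0.813.

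None of the other members was called with all 7 libraries. DDIT3 was at -0.45 (SE 0.24, adjusted p = 0.529) for a KDM5C guide and at -0.53 (SE 0.24, adjusted p = 0.486) for a TRIM11 guide. Without Control, DDIT3 was called for both, at -0.78 and -0.86, and PSAT1 for a KDM5C guide, at 0.697 in place of 0.47. These compare DKD with the single knockdowns, and the -0.86 is the comparison of KDM5C-KD with DKD given below, with its sign reversed. DDIT3 was also called for a TRIM11 guide without TRIM11-KD1 (-0.62), and PSAT1 for a KDM5C guide without KDM5C-KD1 (0.64). For ATF4 the 95% interval was -0.03 to 0.40 for a KDM5C guide and -0.29 to 0.15 for a TRIM11 guide, which leaves out a 1.5-fold change in either direction. ATF4 was the single member whose 4 lines with a KDM5C guide did not overlap the 3 without, at 151 to 177 against 133 to 145 FPKM, beside 10.7% of all genes. For a TRIM11 guide, ASNS and TRIB3 did not overlap, 2 of 9 members beside 8.75% of all genes. ASNS, which makes asparagine and is a classic ATF4 target, was at 17.3 FPKM in Control, 16.5 and 19.6 in KDM5C-KD, 15.9 and 14.1 in TRIM11-KD, and 15.9 and 14.5 in DKD. Its fitted difference for a TRIM11 guide was -0.22 (SE 0.10, adjusted p = 0.506). SESN2, a leucine-binding regulator of mTORC1, ranged from 4.11 in DKD1 to 6.18 FPKM in KDM5C-KD2, and its 2 KDM5C-KD lines spanned nearly all of that range.

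**Figure D3:**
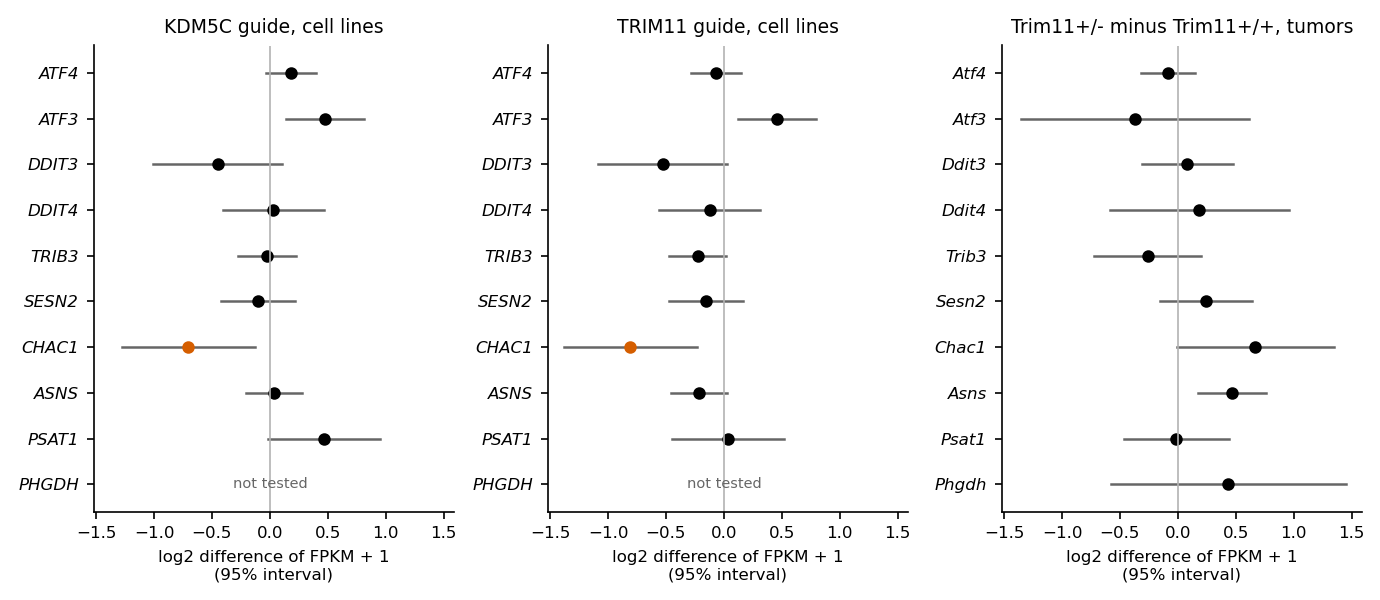
Fitted log2 difference of FPKM + 1 (x axis, points) with 95% limma intervals (lines) for the 10 genes, for a KDM5C guide and a TRIM11 guide over 7 cell libraries and for Trim11+/- minus Trim11+/+ over 6 tumors. Orange points passed the fold and unadjusted p rule. CHAC1 did so for both guides at -0.70 and -0.81, and no gene did in tumors, where Asns was at 0.47.

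DDIT3 encodes CHOP, the factor tied to cell death under lasting ER stress, and its lowest values were in the double knockdown. On hg19 it lies at chr12:57910371-57915520 on the minus strand. It was at 18.8 FPKM in Control, 20.0 and 17.1 in TRIM11-KD, 17.8 and 21.4 in KDM5C-KD, but 13.5 and 7.79 in DKD, or 10.7 ± 4.06 (SD, n = 2) in DKD and 19.6 ± 2.52 (SD, n = 2) in KDM5C-KD. Both DKD lines were below the other 5 lines for DDIT3, beside 7.36% of all genes, and above them for ATF3, beside 7.56%. KDM5C-KD and DKD differ by the TRIM11 guides, apart from KDM5C guide 1 in 1 of the lines. In limma over the 6 knockdown lines DDIT3 was 1.84 times higher in KDM5C-KD than in DKD (log2 difference 0.86, SE 0.25, adjusted p = 0.381). It was the 1 member called of 9, where 6.74% of all genes were called. The call was lost without DKD2, where the difference was 0.50, and without KDM5C-KD2, where it was 0.74.

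Other members lay to both sides in the same comparison. ATF3 was lower in KDM5C-KD than in DKD (-0.48, SE 0.20, adjusted p = 0.428) at a ratio of 0.713, inside the fold limit. CHAC1 was at a ratio of 1.78 (adjusted p = 0.488). The groups did not overlap for 5 of 9 members, ATF3, DDIT3, TRIB3, CHAC1 and ASNS, beside 43.3% of all genes. Without KDM5C-KD2, PSAT1 was called lower in KDM5C-KD, at -0.65. With the replicate number as a block, 2 members were called in this comparison, DDIT3 and CHAC1. A term for the interaction of the guides, added after the data were seen, asked whether a KDM5C guide acts differently beside a TRIM11 guide. None of the 9 members had an unadjusted p under 0.05 for it in limma, while 5.49% of all genes did. For DDIT3 it was -0.84 (SE 0.40, adjusted p = 0.879), so DDIT3 in DKD is not shown to differ from the sum of both guides.

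KDM5C-KD and TRIM11-KD did not differ for any member by the fold and p rule, while 5.37% of all genes passed. No member had an unadjusted p under 0.05 in limma, while 1241 of 12636 genes did, and the adjusted p-values of the members were 0.527 to 0.977. All 9 fitted differences were nominally positive, but that of ATF3 was 0.020 although its mean was 43.7 FPKM in KDM5C-KD and 43.8 in TRIM11-KD, and it turned to -0.26 without TRIM11-KD1 and to -0.082 without KDM5C-KD2. The groups did not overlap for ATF4, TRIB3, ASNS and PSAT1, 4 of 9, beside 43.5% of all genes. The largest of these was PSAT1 at a ratio of 1.42 (adjusted p = 0.565, 95% interval -0.17 to 1.03 on the log2 scale).

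PSAT1, the aminotransferase that follows PHGDH in serine synthesis, was higher in the lines with KDM5C guide 2 than in the other 4. It was at 30.6 FPKM in KDM5C-KD2, 27.9 in DKD1 and 28.1 in DKD2, the 3 lines with KDM5C guide 2. In KDM5C-KD1, with guide 1, it was at 17.5, close to 16.5 and 17.3 in TRIM11-KD and below 21.2 in Control. Guide 1 was thus seen in 1 line only, and both DKD lines carried guide 2. For ATF4 the 3 guide 2 lines were also highest, but barely, at 151.03 FPKM or more against 150.96 in KDM5C-KD1. Its 4 lines with a KDM5C guide were all above the 3 without, so ATF4 did not set guide 2 apart from guide 1. Of 9 members, PSAT1 and ATF4 had all guide 2 lines above the other 4, beside 4.83% of all genes, a split chosen after the data were seen. Between KDM5C-KD and TRIM11-KD, PSAT1 was called without KDM5C-KD1, at a difference of 0.82, and was at 0.045 without KDM5C-KD2. PSPH, the enzyme after PSAT1, was at 16.2, 15.6 and 16.7 FPKM in the guide 2 lines and 11.5 to 13.8 in the others. SHMT2, which uses the serine made, was at 63.9 to 70.0 against 53.6 to 66.1 and overlapped.

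The 4 members compared by pattern were not the nearest neighbors of each other. Likeness was the root mean square difference of centered log2(FPKM + 1) over the 7 lines, among genes with a mean of at least 5 FPKM. The nearest genes to ATF4 were HIGD1A (0.0258), MTMR4 (0.0304) and ARHGAP39 (0.0329), and the nearest member, ASNS, ranked 392 of 8791. For ASNS they were BLMH (0.0347), VPS18 (0.0359) and ARPP19 (0.0375), with ATF4 at rank 351. For TRIB3 they were NUDT9 (0.0311), UBE3B (0.0418) and FKBP9 (0.0423), with ASNS at rank 220. For CHAC1 they were FIG4 (0.152), JAG1 (0.163) and TIMP1 (0.187), with DDIT3 at rank 223 of 8792. CHAC1 was itself below the 5 FPKM limit. This measure depends on how much a gene varies as well as on its pattern. The ranks are descriptions over 7 libraries.

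The wider pathway was read through 6 lists of 74 genes, of which 69 were tested in the cell lines. Between KDM5C-KD and DKD, 8 of the 69 were called, all higher in KDM5C-KD, beside 6.74% of all genes in either direction. The median log2 difference was 0.17 over the 69 genes and -0.00083 over all genes. NUPR1, a small stress-induced chromatin protein, was at 10.8 and 21.3 FPKM in KDM5C-KD and at 3.42 and 3.01 in DKD, a ratio of 5.002. GDF15, a secreted stress hormone, was at 18.5 and 25.1 FPKM in KDM5C-KD and at 7.28 and 6.15 in DKD, a ratio of 3.25. The other 6 were EIF2AK3, the ER kinase PERK (ratio 1.79), PPP1R15A, the phosphatase subunit GADD34 that ends the response (1.56), CTH of cysteine synthesis (1.97), the amino acid transporter SLC38A2 (1.75), the transaminase GPT2 (1.64) and the lipoprotein receptor VLDLR (1.69). By limma every adjusted p in this group was at or above 0.379. Without KDM5C-KD2 these 6 calls were lost, at 0.37 for EIF2AK3, 0.49 for PPP1R15A, 0.485 for CTH, 0.705 for SLC38A2, 0.405 for GPT2 and 0.56 for VLDLR, while NUPR1 and GDF15 were still called. Without DKD1 the calls of EIF2AK3 (0.74) and CTH (0.66) were lost, and without DKD2 those of EIF2AK3 (0.67), GPT2 (0.46) and VLDLR (0.505). VLDLR also missed without KDM5C-KD1 (0.72).

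Among the 15 ER chaperones and targets of ATF6 or XBP1 none was called in that comparison, but 14 of 15 were nominally higher in KDM5C-KD, at a median of 0.24. None of the 13 tRNA synthetase genes was called. For a TRIM11 guide over all 7 lines, 2 of the 69 were called, close to the 3.02% of all genes, NUPR1 (-1.42, SE 0.40, adjusted p = 0.448) and GDF15 (-1.05, SE 0.34, adjusted p = 0.448), both lower. The Control level of NUPR1 was 10.2 FPKM, with 10.1 for guide 1 and 3.70 for guide 2 in TRIM11-KD. That of GDF15 was 13.8, with 16.3 for guide 1 and 7.35 for guide 2. Guide 1 alone therefore left both near Control, and they were low with guide 2 and in both DKD lines. GDF15 was no longer called for a TRIM11 guide without KDM5C-KD2 (-0.82) or without DKD2 (-0.88).

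For a KDM5C guide 3 of the 69 were called, all lower, beside 2.13% of all genes, the angiogenic factor VEGFA (-0.67, SE 0.12, adjusted p = 0.339), SLC38A2 (-0.63) and the glycine transporter SLC6A9 (-0.62). VEGFA was at 81.3 FPKM in Control, 67.2 and 54.1 in TRIM11-KD, 55.7 and 44.9 in KDM5C-KD, and 38.8 and 37.3 in DKD, so it was below Control in all 6 lines as CHAC1 was. VEGFA was called whichever library was left out. SLC6A9 lost its call without Control and with the replicate number as a block, a fit that also left out Control (-0.33 in both). It also lost the call without TRIM11-KD1 (-0.62), without KDM5C-KD2 (-0.49) and without DKD2 (-0.58). SLC38A2 lost it without TRIM11-KD1 (-0.41) and without DKD1 (-0.55). Between KDM5C-KD and TRIM11-KD, 5 of the 69 were called higher, NUPR1, GDF15, GPT2, AARS and SDF2L1, and EIF2S3 was called lower. These 6 of 69 stand beside 5.37% of all genes. None of the 6 calls held without KDM5C-KD2, where the differences were 0.71 for NUPR1, 0.70 for GDF15, 0.50 for GPT2, 0.34 for AARS, 0.42 for SDF2L1 and -0.57 for EIF2S3. Without TRIM11-KD2, 5 were lost, at 0.55 for NUPR1, 0.39 for GDF15, 0.55 for GPT2, 0.48 for AARS and -0.48 for EIF2S3. SDF2L1 was lost without TRIM11-KD1 (0.60), and GDF15 and EIF2S3 (-0.68) without KDM5C-KD1. NUPR1 (1.17) and GDF15 (0.91) also missed the threshold when either DKD line was left out of the fit.

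Against Control, 7 of the 69 were at least 1.5 times below in both DKD lines and none above, beside 4.87% of all genes below and 5.83% above. They were NUPR1, SLC38A2, CTH, SLC6A9, VEGFA, GDF15 and ERN1, the ER sensor IRE1. In KDM5C-KD 3 were above, SLC7A11, the cystine transporter (1.83 times), SDF2L1 (1.96) and STC2 (8.08), and SLC6A9 was below, beside 5.36% of all genes above and 3.97% below. The high mean of STC2 came from KDM5C-KD2 at 4.69 FPKM, with 0.489 in KDM5C-KD1 and 0.320 in Control. In TRIM11-KD only SLC7A11 was counted, at 1.53 times Control, beside 3.4% of all genes above.

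**Figure D4:**
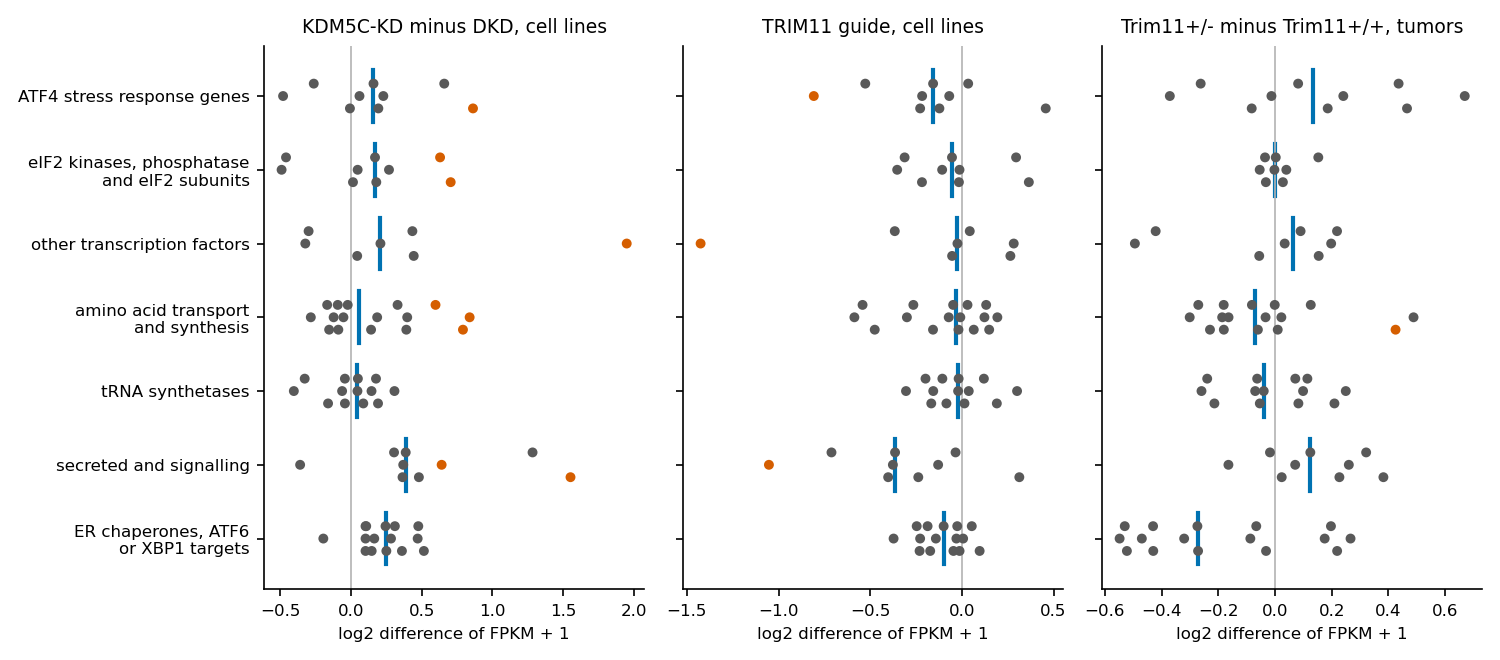
Log2 difference of FPKM + 1 (x axis) for the genes of 7 lists (rows), with 1 point per gene and a blue bar at the list median, for KDM5C-KD minus DKD, for a TRIM11 guide and for Trim11+/- minus Trim11+/+ tumors. Orange points passed the fold and unadjusted p rule. NUPR1 at 1.95 and GDF15 at 1.55 lie farthest to the right in the KDM5C-KD and DKD panel, and most ER chaperones lie left of 0 in tumors, at a median of -0.27.

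In the tumors all 10 genes were tested and none was called between Trim11+/- and Trim11+/+. The share of all 17328 genes called was 3.61%. By limma 1 of the 10 had an unadjusted p under 0.05, Asns, beside 1202 of the 17328 genes. With limma voom on the recovered reads 1 of the 10 was called, Chac1. Of all 16947 genes in that fit, 263 were called higher and 287 lower. Bulk tumors hold several cell types, and fewer cells of a type cannot be told apart from less RNA in each.

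Asns (mm10 chr6:7675169-7693254, minus strand) was higher in every Trim11+/- tumor. It was at 16.2, 14.3 and 17.8 FPKM in Trim11+/+ tumors 1 to 3 and at 20.0, 24.2 and 23.8 in Trim11+/- tumors 1 to 3. The means were 16.1 ± 1.73 (SD, n = 3) and 22.7 ± 2.31 (SD, n = 3), a ratio of 1.40 that stayed inside the fold limit. The log2 difference was 0.47 (SE 0.12), and the adjusted p by limma was 0.629. The two-sided exact permutation test gave p = 0.1, the smallest that 3 tumors against 3 allow. Between 399 and 700 reads lay behind each value of Asns, and its difference stayed between 0.39 and 0.55 in every alternative fit.

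Chac1 was the other gene whose groups did not overlap, 2 of 10 beside 13.4% of all genes. It was at 1.57, 0.361 and 0.304 FPKM in Trim11+/+ and at 1.59, 1.67 and 1.65 in Trim11+/-. Trim11+/+ tumor 1 was next to the Trim11+/- tumors, and the other two were far lower. These values rest on 28, 6 and 5 reads against 29, 24 and 29. The ratio of means was 2.20 (log2 difference 0.67, SE 0.28, adjusted p = 0.713). It was called when Trim11+/+ tumor 1 was left out, with a difference of 0.985. The exact permutation p was 0.1.

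The other 8 genes overlapped between the genotypes. Atf4 was again the steadiest, at 88.2, 93.8 and 91.4 FPKM in Trim11+/+ and 78.4, 91.1 and 89.2 in Trim11+/-, with a 95% interval of -0.31 to 0.15. Only 6.83% of expressed genes varied less over the 6 tumors. Ddit3 was at 7.43 to 10.9 FPKM in Trim11+/+ and 8.04 to 10.3 in Trim11+/-. Sesn2 was at 5.77 to 7.43 and 7.10 to 10.3. Atf3 was at 7.48, 11.2 and 10.7 in Trim11+/+ and at 11.9, 9.24 and 3.24 in Trim11+/-. Trib3 was at 12.2, 11.7 and 12.2 in Trim11+/+ and at 10.5, 12.8 and 7.14 in Trim11+/-. Trim11+/- tumor 3 was thus the lowest for both Atf3 and Trib3, and without it the difference of Atf3 turned from -0.37 to 0.11.

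The serine enzymes, unlike in MDA-MB-231, were both well expressed in the tumors. Phgdh was at 49.3, 18.8 and 29.98 FPKM in Trim11+/+ and at 29.6, 34.7 and 68.8 in Trim11+/-. Psat1 was at 54.4, 32.8 and 39.3 in Trim11+/+ and at 39.3, 38.0 and 45.7 in Trim11+/-. Trim11+/+ tumor 1 and Trim11+/- tumor 3 were the 2 highest for each gene and Trim11+/+ tumor 2 the lowest. Phgdh spread more between tumors than 92.6% of expressed genes. Ddit4 was at 124.8, 67.7 and 119.2 in Trim11+/+ and at 85.2, 104.7 and 167.0 in Trim11+/-, and here too Trim11+/+ tumor 2 was lowest.

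**Figure D5:**
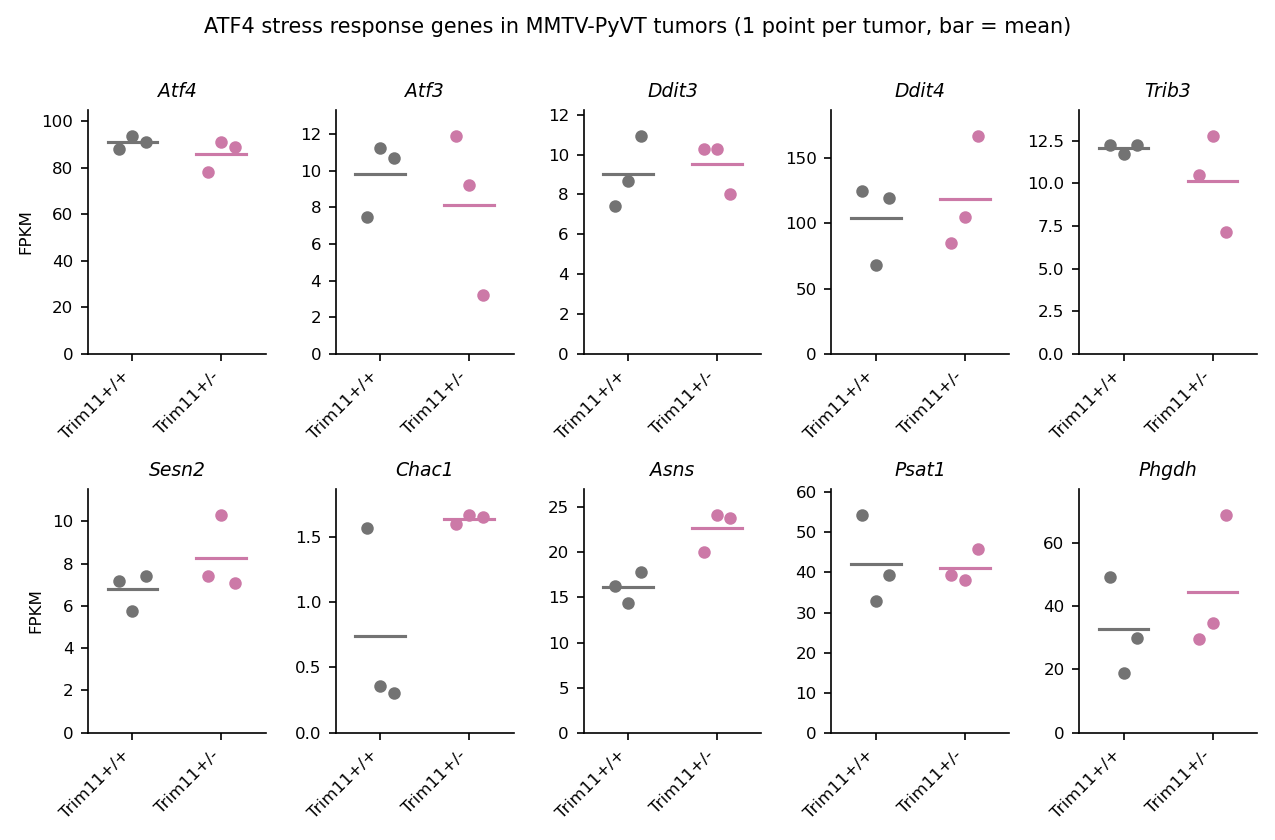
FPKM of the 10 mouse genes (y axis, linear from 0, a separate scale for each gene) in 3 Trim11+/+ and 3 Trim11+/- tumors, with 1 point per tumor and a bar at the group mean. The groups do not overlap for Asns (14.3 to 17.8 against 20.0 to 24.2) and Chac1 (0.304 to 1.57 against 1.59 to 1.67).

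Cell type markers moved between these tumors too. The summed level of 7 fibroblast markers was 168, 359 and 297 FPKM in Trim11+/+ tumors 1 to 3 and 259, 145 and 181 in Trim11+/- tumors 1 to 3. Trim11+/+ tumor 1, the one with high Chac1, Phgdh and Psat1, was the lowest of its group, and Trim11+/+ tumor 2 was the highest of all. For 6 adipocyte markers the sums were 55.2, 393 and 89.3 against 330, 177 and 26.7. For 6 skeletal muscle markers they were 22.45, 108 and 231 against 278, 1.78 and 2.26. The 5 erythrocyte genes summed to 38.0 to 47.8 against 16.3 to 24.2, and 3 of them, Hba-a1, Hbb-bs and Hbb-bt, were called lower. Hba-a2, a near copy of Hba-a1, was called higher at low levels that overlapped. It was at 0.137, 0 and 0 FPKM in Trim11+/+ and at 0.135, 1.36 and 1.81 in Trim11+/-. Whether reads were shared between Hba-a1 and Hba-a2 was not tested. The 6 epithelial markers were at 1433 to 1835 against 1379 to 1875, the 8 leukocyte markers at 59.8 to 70.6 against 45.2 to 61.5, and the 5 endothelial markers at 13.7 to 20.5 against 11.1 to 18.9. The part of these cell types in the values of Asns, Chac1 and the other members was not tested.

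Of the 70 other pathway genes tested in tumors 1 was called, Slc6a9 (ratio 1.62, limma adjusted p = 0.707), at 0.988 to 1.58 FPKM in Trim11+/+ and 1.72 to 2.21 in Trim11+/-, which is 1 of 70 beside 3.61% of all genes. Its call was lost with no filter, with the replicate number as a block (0.43 in both) and without Trim11+/+ tumor 2 (0.38), Trim11+/+ tumor 3 (0.355), Trim11+/- tumor 1 (0.43) or Trim11+/- tumor 2 (0.36). The 16 ER chaperones and targets of ATF6 or XBP1 had none called, but 12 of 16 were nominally lower in Trim11+/-, at a median of -0.27 beside -0.0048 over all genes, and 7 of 16 did not overlap, all lower, beside 13.4% of all genes in either direction (1175 of 17328 lower). Hspa5, the ER chaperone BiP, was at 231, 294 and 283 FPKM in Trim11+/+ and at 184, 181 and 195 in Trim11+/-. Xbp1, by contrast, was at 515 to 559 and 538 to 659. The 8 eIF2 kinase, phosphatase and subunit genes had a median of 0.00033 and the 13 tRNA synthetase genes one of -0.040, with none called in either list.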

How the data were processed

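RNA-Seq of 7 MDA-MB-231 libraries and 6 mouse mammary tumors was used. By the paper's account, reads were trimmed with Cutadapt, mapped with HISAT2 to hg19 or mm10 and passed to Cufflinks with default settings. The authors deposited FPKM values, 1 column per library. Poly(A) libraries were non-directional, so antisense reads could not be told apart. ChIP-Seq was not analysed here. Where several rows carried 1 symbol, the most highly expressed row was kept, and 27 human symbols turned into dates were dropped. Genes with a mean of at least 0.5 FPKM were tested with limma 3.58.1 (R 4.3.3; lmFit, eBayes with trend) on log2(FPKM + 1), with Benjamini-Hochberg adjustment over all of them. Fold changes on this scale understate those of low genes. A gene was called at a 1.5-fold ratio and an unadjusted p under 0.05, as in the study's methods. Between groups the ratio was that of mean FPKM, and for the guide terms it was the fitted ratio of FPKM + 1. The shares of genes called for a guide and between groups therefore rest on different ratios. Tumor FPKM steps gave whole reads for 98.76% of the values checked (within 0.02 of a read), so limma voom was run on those reads as an alternative. The fits were tested on simulated data.

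All 10 members were named, with TRIM11 and KDM5C, and of the other lists up to 3 called genes per comparison and list with the largest difference, plus the 3 genes most like ATF4, ASNS, TRIB3 and CHAC1. Other genes (PSPH, SHMT2, Hspa5, Xbp1) were chosen after their values were seen. Members and lists were chosen with earlier results of these data known. Nothing states that the lines or tumors beyond the labels are independent cultures, so p-values measure the spread between these samples. Figures used matplotlib 3.10.9, other steps Python 3.11.15 with pandas 2.3.3, numpy 2.4.6 and scipy 1.17.1.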

Additional observations from a re-analysis of the deposited data

How the results depend on the processing

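Of 101 recomputed counts of called members 78 stayed within 1.5 times the reported count, but this does not ask whether the same gene was called. For a KDM5C guide PSAT1 took the place of CHAC1 without KDM5C-KD1. For a TRIM11 guide DDIT3 took its place without Control. Of 1278 recomputed differences of single genes 1143 counted as unchanged, 38 reversed, 74 lost a call, 21 gained one and 2 moved. In the limma fits, unchanged means the same direction and side of the threshold. Against Control it means a shift smaller than the SD of the 2 lines, which can hide a change of direction or call. Leaving out 1 library gave 0 to 1 called members in tumors, 0 to 2 for KDM5C-KD against DKD, 0 to 1 for KDM5C-KD against TRIM11-KD, 0 to 2 for a KDM5C guide, 1 to 2 for a TRIM11 guide, 1 to 2 for TRIM11-KD and 2 to 3 for DKD against Control. In tumors 1 member (Chac1) was called with median-ratio scaling, without a variance trend and with voom. KDM5C-KD against DKD gave 2 with no filter, which adds PHGDH. With a 2-fold limit against Control TRIM11-KD gave 0 and DKD 1. Without the libraries of TRIM11 guide 1, an alternative chosen after seeing the data, the counts were 2 for KDM5C-KD against DKD, 3 for a TRIM11 guide and 2 for TRIM11-KD against Control. Same-numbered tumors did not deviate together (r = -0.33, 0.0385 and -0.13). Same-numbered cell lines correlated at 0.371 for TRIM11-KD with DKD, which share the TRIM11 guide of that number. The values were 0.273 for KDM5C-KD with DKD and 0.088 for TRIM11-KD with KDM5C-KD. With 2 lines in a group both pairs give the same value by construction, so each r is a single observation. The block was not used for the reported values. With the replicate block 2 members were called for KDM5C-KD against DKD, 2 for a KDM5C guide (DDIT3 and PSAT1) and 2 for a TRIM11 guide. CHAC1 lost its call for a KDM5C guide at -0.56. For the guide terms the block was fitted without Control, and their differences equalled those of the fit without Control.

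Some log2 differences changed direction between fits, by small or by larger amounts. For KDM5C-KD against DKD, DDIT4 turned to 0.013 with equal totals and 0.18 without guide 1 libraries. For a KDM5C guide DDIT4 turned to -0.0062 without guide 1 libraries. For a TRIM11 guide it turned to 0.0077 under the replicate block, which left out Control. ATF3 turned to -0.26 (KDM5C-KD against TRIM11-KD, without guide 1 libraries) and TRIB3 to 0.044 (KDM5C guide, replicate block without Control). Leaving out 1 library, the ranges that crossed 0 were, in tumors, -0.69 to 0.11 for Atf3, -0.035 to 0.22 for Ddit3, -0.094 to 0.40 for Ddit4 and -0.17 to 0.18 for Psat1. For KDM5C-KD against DKD they were -0.056 to 0.18 for ATF4, -0.26 to 0.24 for DDIT4, -0.65 to 0.13 for PSAT1 and -0.022 to 0.41 for SESN2. For KDM5C-KD against TRIM11-KD they were -0.26 to 0.29 for ATF3, -0.33 to 0.53 for CHAC1, -0.047 to 0.20 for DDIT3, -0.099 to 0.40 for DDIT4 and -0.16 to 0.27 for SESN2. For a KDM5C guide they were -0.0077 to 0.077 for ASNS, -0.12 to 0.16 for DDIT4 and -0.094 to 0.044 for TRIB3. For a TRIM11 guide they were -0.28 to 0.0077 for DDIT4 and -0.22 to 0.26 for PSAT1. For KDM5C-KD against Control they were -0.075 to 0.19 for DDIT3, -0.42 to 0.083 for DDIT4 and -0.32 to 0.19 for SESN2. For ASNS and PSAT1 there they were -0.072 to 0.18 and -0.28 to 0.53. For DDIT3 in TRIM11-KD against Control the range was -0.14 to 0.087, and for DDIT4 in DKD against Control -0.35 to 0.027. The cause was not tested.

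Over all genes the count called was 625 in tumors (507 to 970 over the alternatives), 852 for KDM5C-KD against DKD (341 to 1604), 679 for KDM5C-KD against TRIM11-KD (276 to 1533), 269 for a KDM5C guide (188 to 500) and 382 for a TRIM11 guide (201 to 884). Against Control it was 1179 for KDM5C-KD (484 to 3868), 756 for TRIM11-KD (230 to 3374) and 1353 for DKD (562 to 4113). Depth limits Chac1 in tumors, with 5 to 29 reads.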
